A study of Danio rerio with 4 samples.

Results

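The non-fibrillar collagens are the collagen genes outside types I, II, V and XI, and their RNA was compared between nexn-/- and nexn+/+ zebrafish embryos. Genes were taken by symbol (col, a type number, a and a chain number), the types I, II, V and XI were left out, and a gene had to have 10 or more reads in at least 2 libraries. Of 32057 genes in the tables, 54 were collagens by symbol. Of these, 39 genes of 17 collagen types were kept, 13 belonged to the excluded types, and 2 had too few reads. The study asked how loss of nexn, which encodes a protein of the sarcomeric Z-disc, affects heart and skeletal muscle. The nexn-/- embryos were homozygous for a CRISPR/Cas9-induced deletion in exon 2 of nexn and came from an incross of nexn-/- adults, whereas the nexn+/+ embryos carried the wild-type allele and came from an incross of nexn+/+ adults. The parents of both genotypes descended from a heterozygous pair but lived in different tanks, so genotype and parents cannot be told apart. For each genotype 2 libraries were made, each from whole embryos at 72 hpf pooled to 25.

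Fibrillar collagens form the rope-like fibrils of bone, skin and tendon. The other collagens do the rest of the work of the matrix: type IV forms the sheet of basement membranes, type VI forms beaded filaments around muscle fibres and cells, type VII anchors epithelia to the tissue beneath, types VIII and X form short-chain networks, and the FACIT group (types IX, XII, XIV, XVI, XIX, XXI) sits on the surface of fibrils. Types XV and XVIII, the multiplexins, lie next to basement membranes, type XVII spans the membrane of basal epidermal cells, and type XXVIII resembles type VI. Types XXIV and XXVII are fibril-forming by structure, and they are included here because the choice went by type number. Loss of type VI collagen causes human muscle dystrophies, and type IX is a component of cartilage and, in fish, of the notochord sheath.

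The libraries held between 19413597 and 21956272 estimated counts. The nexn+/+ pair was the more variable one, with a median absolute log2 difference per gene of 0.144 between the nexn-/- replicates and of 0.243 between the nexn+/+ replicates. The test was the quasi-likelihood F-test of edgeR over 20312 genes. A call required a Benjamini-Hochberg adjusted p below 0.05 and a log2(FC), nexn-/- over nexn+/+, beyond 0.5. Of the tested genes, 30.6% were called, 16.7% higher and 13.9% lower. The targeted gene nexn had 40.2 and 51.0 CPM in the nexn-/- libraries, against 96.3 and 75.4 CPM in the nexn+/+ libraries. CPM is the count relative to the TMM-scaled library size. The gene was called lower (log2(FC) -0.91, adjusted p = 0.00737, edgeR). The paper describes nexn mRNA as unaltered by qPCR and by sequencing. The sequencing values that it prints for nexn, however, were also lower in nexn-/- embryos and were beyond both of its limits. The median log2(FC) of the tested genes was 0.02, and it was 0.17 with library size alone and 0.13 with the upper quartile as scaling. Markers of cartilage, notochord, epidermis, fin fold, connective tissue, vessels, muscle, nerve, retina and lens were detected, although noto and mgp of the notochord list were too low to be tested. Likewise 6 of 7 fin fold genes and 16 of 17 photoreceptor genes were tested, and 17 of 18 listed photoreceptor symbols were found.

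Most of the non-fibrillar collagens were higher in nexn-/- embryos. Of the 39 genes, 30 were called higher and 0 lower, while 16.7% of tested genes were called higher and 13.9% lower. The 9 genes without a call were col7a1, col8a1a, col9a1b, col14a1a, col15a1b, col18a1b, col21a1 and both genes named col19a1. The median log2(FC) was 1.09 over the 39 genes. In 34 genes both nexn-/- libraries lay above both nexn+/+ libraries, an order held by 36.4% of tested genes. In 3 genes both lay below, an order held by 34.4% of tested genes. The calls fell in 14 of the 17 types, and types XV, XIX and XXI had none. The 13 fibrillar collagens had 12 called higher, 0 lower and a median log2(FC) of 1.04.

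The read limit lets in genes that are low in nexn+/+ embryos when they are high in nexn-/- embryos. This applied to 4 genes with under 10 reads in at least 1 nexn+/+ library, of which 2 were called, col27a1b and a low second gene named col6a3. Of the 35 genes with 10 or more reads in both nexn+/+ libraries, 28 were called higher, with a median log2(FC) of 1.02. Just inside the limit, col21a1 had 22 and 31 reads in the nexn-/- libraries, against 1 and 10 in the nexn+/+ libraries. Just outside it, col28a1b had 8 and 20 reads in nexn-/-, against 4 and 6 in nexn+/+ libraries, and col10a1b had 8 and 9 in nexn-/-, against 1 and 7 in nexn+/+ libraries.

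**Figure D1:**
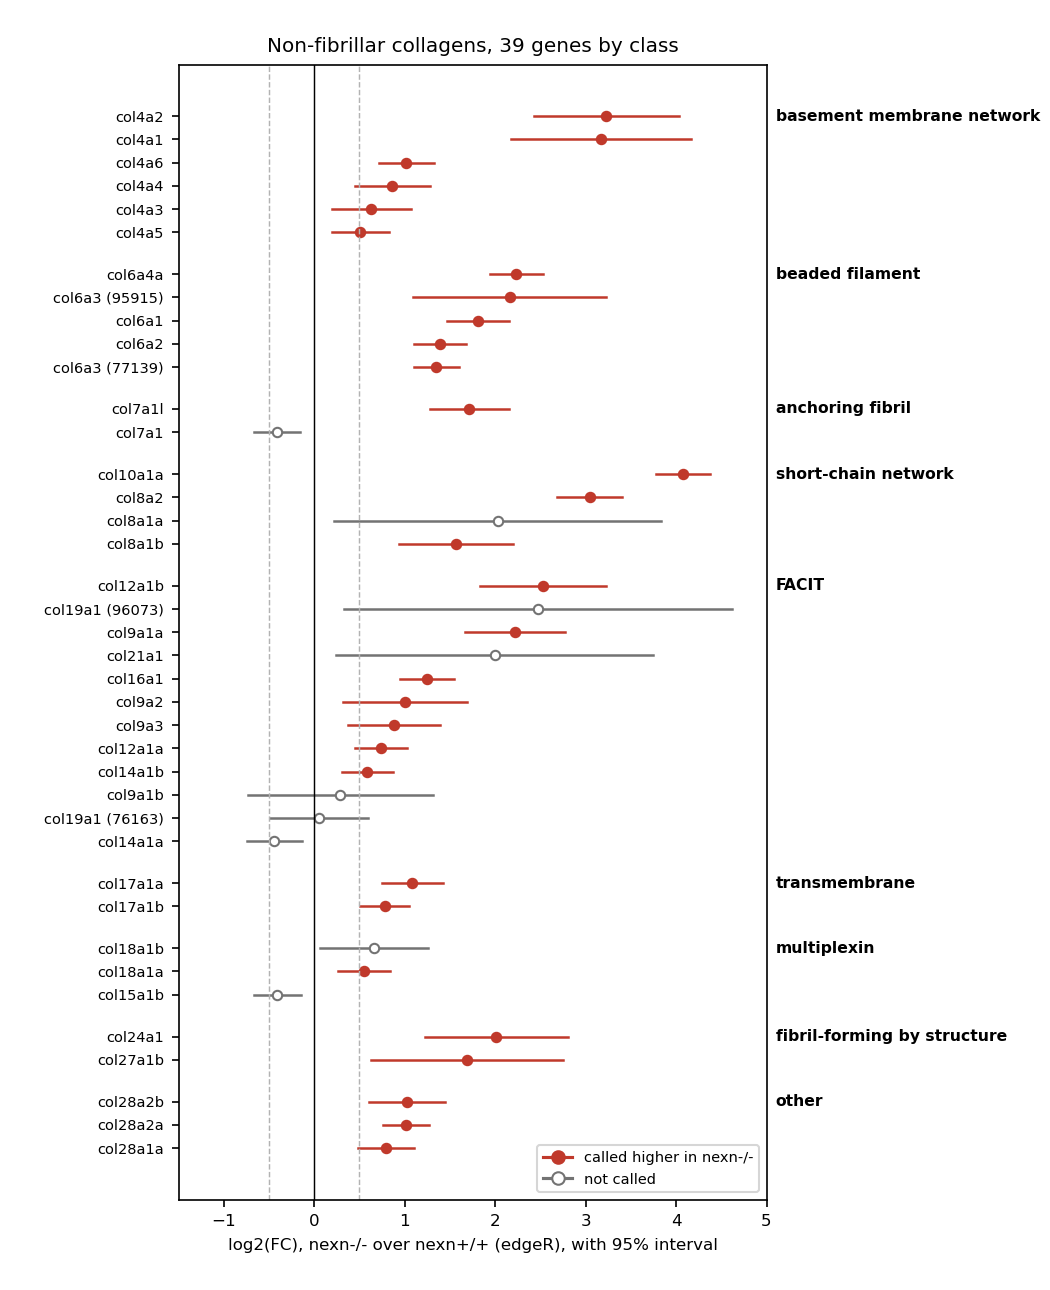
The log2(FC) of each of the 39 genes, nexn-/- over nexn+/+, with its 95% interval on the horizontal axis, grouped by collagen class. Filled red points are the 30 genes called higher, open grey points the 9 without a call, and the dashed lines mark a log2(FC) of 0.5 in either direction; where 2 genes share a symbol, the last digits of the identifier are given.

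The short-chain network collagens showed the largest ratio of summed levels among the collagen classes. col10a1a (ENSDARG00000054753) encodes type X collagen, the collagen of hypertrophic cartilage and, in fish, of bone-forming cells. It had 83.1 and 77.9 CPM in the nexn-/- libraries, against 4.99 and 4.54 CPM in the nexn+/+ libraries. The groups were far apart and the replicates close together, and the difference was 16.9-fold (log2(FC) 4.08, standard error 0.126, adjusted p = 8.85e-05, edgeR). It was the largest log2(FC) among the 39 genes. col8a2 (ENSDARG00000060893), a type VIII chain found in the corneal basement membrane of mammals, had 26.9 and 25.2 CPM in nexn-/- embryos, against 3.17 and 3.12 CPM in nexn+/+ embryos. The difference was 8.26-fold (log2(FC) 3.05, standard error 0.152, adjusted p = 0.000488, edgeR), and with either nexn+/+ library left out the log2(FC) stayed between 3.04 and 3.06. col8a1b rose as well, with 4.89 and 4.90 CPM in nexn-/- libraries, against 1.47 and 1.81 CPM in nexn+/+ libraries (log2(FC) 1.57, standard error 0.266, adjusted p = 0.00557, edgeR).

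The remaining type VIII gene, col8a1a (ENSDARG00000077403), a notochord collagen in zebrafish, was not called. Its nexn-/- libraries were alike, at 34.5 and 32.6 CPM, but its nexn+/+ libraries were at 15.3 and 1.41 CPM. Both nexn-/- libraries were above both nexn+/+ libraries, as in 36.4% of tested genes, yet the nexn+/+ replicates differed 10.8-fold from each other. The log2(FC) was 2.03 (95% interval 0.22 to 3.84, adjusted p = 0.0791, edgeR), and leaving out nexn+/+ replicate 1 gave 4.57, whereas leaving out replicate 2 gave 1.13. It was called with limma-voom (adjusted p = 0.018), and by edgeR with library size alone (adjusted p = 0.0111) and with the replicate number as a block (adjusted p = 0.00751). It was not called with DESeq2 (adjusted p = 0.289), nor by edgeR with RLE scaling (adjusted p = 0.0801) or the upper quartile (adjusted p = 0.0555). Summed over the 4 short-chain genes, the deposited TPM, which also allows for transcript length, was 75.4 and 68.5 in nexn-/- and 10.8 and 4.97 in nexn+/+ embryos.

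Type IV collagen is built from chains that are encoded pairwise by neighbouring genes. In the gene order of the GRCz12tu assembly no protein-coding gene lay between col4a1 and col4a2, between col4a3 and col4a4, or between col4a5 and col4a6. All 6 genes were called higher, against 16.7% of all tested genes. The pairs, however, differed in level and in the size of the change. col4a1 and col4a2 encode the chains found in nearly all basement membranes of mammals. col4a1 (ENSDARG00000055009) had 28.4 and 24.3 CPM in the nexn-/- libraries, against 4.53 and 1.41 CPM in the nexn+/+ libraries (log2(FC) 3.17, standard error 0.419, adjusted p = 0.00246, edgeR). col4a2 (ENSDARG00000104110) had 17.4 and 17.1 CPM in nexn-/-, against 2.61 and 1.11 CPM in nexn+/+ libraries (log2(FC) 3.23, standard error 0.337, adjusted p = 0.00143, edgeR). Both chains were well separated between genotypes, and both were lower in nexn+/+ replicate 2 than in replicate 1. The log2(FC) of col4a1 was therefore 4.22 without nexn+/+ replicate 1, whereas leaving out replicate 2 gave 2.54, and that of col4a2 was 3.96 and 2.72.

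Of the other type IV pairs, col4a5 and col4a6 held most of the type IV transcripts, and col4a5 is needed in zebrafish for the layering of retinal axons in the tectum. col4a6 (ENSDARG00000052061) had 470 and 437 CPM in nexn-/- embryos, against 237 and 210 CPM in nexn+/+ embryos, a 2.03-fold difference (log2(FC) 1.02, standard error 0.129, adjusted p = 0.0022, edgeR). col4a5 (ENSDARG00000052063) had 547 and 553 CPM in nexn-/-, against 358 and 415 CPM in nexn+/+ libraries (log2(FC) 0.51, standard error 0.133, adjusted p = 0.0254, edgeR). The call of col4a5 was near the fold limit and was lost without nexn+/+ replicate 1, where the log2(FC) was 0.41. It was also lost with DESeq2 (log2(FC) 0.499, adjusted p = 0.00593), with RLE scaling (log2(FC) 0.499) and with the replicate number as a block (adjusted p = 0.0501, edgeR).

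The chains of the kidney glomerulus of mammals, encoded by col4a3 and col4a4, were low. col4a4 had 11.2 and 11.1 CPM in nexn-/- embryos, against 6.46 and 5.80 CPM in nexn+/+ embryos (log2(FC) 0.86, standard error 0.174, adjusted p = 0.0104, edgeR). col4a3 had 10.5 and 10.3 CPM in nexn-/-, against 6.12 and 7.26 CPM in nexn+/+ libraries (log2(FC) 0.63, standard error 0.181, adjusted p = 0.0348, edgeR), with a log2(FC) of 1.13 when effective length was an offset, and it was not called by DESeq2 (adjusted p = 0.0669). In both genes the groups did not overlap, with nexn-/- above, as in 36.4% of tested genes. On the deposited TPM scale the pair col4a1 and col4a2 made up 6.10% and 5.74% of type IV transcripts in nexn-/- libraries, against 1.66% and 0.58% in nexn+/+ libraries. The pair col4a5 and col4a6 made up 91.9% and 92.7% in nexn-/- and 96.9% and 97.8% in nexn+/+ libraries. Neither share overlapped between genotypes, but with 2 libraries against 2 an exact two-sided permutation test cannot give a p below 0.333, so these shares were not tested.

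**Figure D2:**
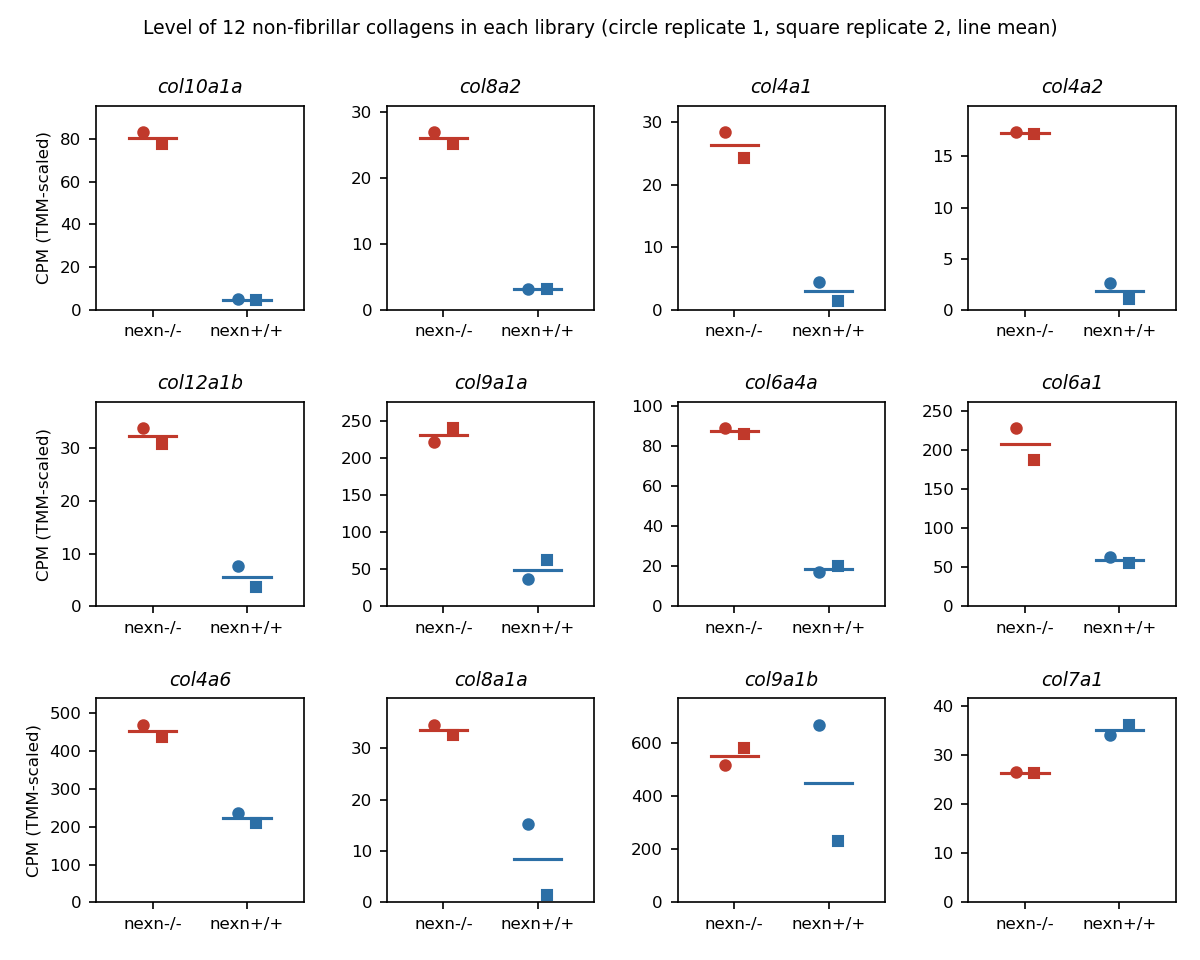
CPM of 12 genes in each library, with nexn-/- on the left (red) and nexn+/+ on the right (blue), circles for replicate 1, squares for replicate 2 and a line at the mean of the 2 replicates. The nexn-/- replicates lie close together in each panel, whereas the nexn+/+ replicates are apart for col8a1a (15.3 and 1.41 CPM) and for col9a1b (668 and 231 CPM), and col7a1 lies lower in nexn-/- embryos.

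Type VI collagen, the muscle and connective tissue filament, rose in its 4 genes with 10 or more reads in every library, and a low copy is given after them. col6a1 (ENSDARG00000074908) had 227 and 187 CPM in nexn-/- libraries, against 62.7 and 55.0 CPM in nexn+/+ libraries, a 3.52-fold difference (log2(FC) 1.81, standard error 0.144, adjusted p = 0.00105, edgeR). col6a2 had 162 and 143 CPM in nexn-/-, against 60.8 and 55.2 CPM in nexn+/+ libraries, a 2.63-fold difference (log2(FC) 1.39, standard error 0.122, adjusted p = 0.0012, edgeR); in the gene order 1 protein-coding gene lies between it and col6a1. The main col6a3 gene (ENSDARG00000077139) had 114 and 109 CPM in nexn-/-, against 44.6 and 43.1 CPM in nexn+/+ libraries, a 2.55-fold difference (log2(FC) 1.35, standard error 0.104, adjusted p = 0.00101, edgeR). These are the 3 chains that assemble into a type VI molecule, and for each the replicates of both genotypes were close and the groups far apart. col6a4a, an additional chain that can take the place of the third one, had 88.7 and 85.9 CPM in nexn-/- embryos, against 17 and 20.01 CPM in nexn+/+ embryos, a 4.71-fold difference (log2(FC) 2.24, standard error 0.122, adjusted p = 0.0006, edgeR).

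A second gene with the symbol col6a3 (ENSDARG00000095915), which met the read limit only through its nexn-/- libraries, was at 1.67 and 1.49 CPM in nexn-/-, against 0.41 and 0.30 CPM in nexn+/+ libraries (log2(FC) 2.16, standard error 0.449, adjusted p = 0.0111, edgeR). Estimated counts of both col6a3 genes were partly not whole, as occurs when reads are divided between copies, so the value of this low copy is uncertain. The TPM ratio of col6a1 to col6a2 was 1.49 and 1.39 in nexn-/- libraries, against 1.09 and 1.06 in nexn+/+ libraries. The ratio of col6a1 to the main col6a3 gene was 0.797 and 0.71 in nexn-/-, against 0.734 and 0.564 in nexn+/+ libraries, and the groups overlapped. Summed over the 5 genes, the TPM was 159 and 137 in nexn-/- and 38.3 and 45.5 in nexn+/+ embryos.

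Type IX collagen was the most abundant type per transcript length, with 844 and 869 summed TPM in nexn-/- libraries, against 530 and 313 in nexn+/+ libraries. This was 49.4% and 50.7% of the TPM of the 39 genes in nexn-/-, and 59.3% and 42.2% in nexn+/+ embryos. Type IX coats the type II fibrils of cartilage and of the notochord sheath. col9a1a (ENSDARG00000073699) had 222 and 240 CPM in nexn-/- libraries, against 37.3 and 61.8 CPM in nexn+/+ libraries, a 4.66-fold difference (log2(FC) 2.22, standard error 0.233, adjusted p = 0.00144, edgeR). col9a2 had 611 and 662 CPM in nexn-/-, against 419 and 217 CPM in nexn+/+ libraries (log2(FC) 1.00, standard error 0.286, adjusted p = 0.0346, edgeR), and col9a3 had 588 and 573 CPM in nexn-/-, against 383 and 246 CPM in nexn+/+ libraries (log2(FC) 0.89, standard error 0.213, adjusted p = 0.019, edgeR). For these 3 genes the groups did not overlap, with nexn-/- above, as in 36.4% of tested genes.

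The paralog of col9a1a, col9a1b (ENSDARG00000031483) was not called. It had 518 and 582 CPM in the nexn-/- libraries, with the nexn+/+ libraries on either side of them at 668 and 231 CPM. The log2(FC) was 0.29 (95% interval -0.73 to 1.31, adjusted p = 0.636, edgeR), with 1.26 without nexn+/+ replicate 1, whereas leaving out replicate 2 gave -0.28. The log2(FC) of col9a2 likewise depended on these libraries, with 1.56 without nexn+/+ replicate 1, whereas leaving out replicate 2 gave 0.61. As a share of the alpha 1 chains by TPM, col9a1a made up 30.7% and 29.9% in nexn-/- libraries, against 5.44% and 21.6% in nexn+/+ libraries. The locus of col9a1b lies 1 protein-coding gene away from col19a1.

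Among the other FACIT collagens, type XII was the one in which both paralogs rose. col12a1a, the more abundant of them, had 272 and 275 CPM in nexn-/- embryos, against 153 and 174 CPM in nexn+/+ embryos (log2(FC) 0.74, standard error 0.121, adjusted p = 0.00501, edgeR). col12a1b (ENSDARG00000019601) had 33.8 and 30.9 CPM in nexn-/-, against 7.59 and 3.68 CPM in nexn+/+ libraries (log2(FC) 2.53, standard error 0.294, adjusted p = 0.00179, edgeR), and its log2(FC) was 3.14 without nexn+/+ replicate 1, whereas leaving out replicate 2 gave 2.09. The groups did not overlap in either gene, with nexn-/- above, an order held by 36.4% of tested genes. By TPM, col12a1b made up 4.02% and 3.14% of type XII transcripts in nexn-/- libraries, against 1.68% and 0.65% in nexn+/+ libraries. col16a1, next to col9a2 in the gene order, had 54.3 and 53.7 CPM in nexn-/- embryos, against 25.0 and 20.6 CPM in nexn+/+ embryos (log2(FC) 1.25, standard error 0.1252, adjusted p = 0.00134, edgeR).

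The type XIV paralogs lay on opposite sides. col14a1b had 86.0 and 98.2 CPM in nexn-/- libraries, against 64.4 and 58.2 CPM in nexn+/+ libraries (log2(FC) 0.59, standard error 0.119, adjusted p = 0.0106, edgeR). Its call was lost with offsets for effective length (log2(FC) 0.38), the length over which the deposited FPKM spreads the counts. Like every call but that of col10a1a, it was also lost without either nexn-/- library. The log2(FC) was then 0.68 without nexn-/- replicate 1 and 0.49 without replicate 2. col14a1a had 17.5 and 17.6 CPM in nexn-/- embryos, against 22.3 and 25.3 CPM in nexn+/+ embryos. Its adjusted p was 0.0349 by edgeR, but the log2(FC) of -0.44 was short of the fold limit, so it was not called. Without nexn+/+ replicate 1 its log2(FC) was -0.53, but the spread then came from the nexn-/- pair alone.

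The low FACIT genes gave wide intervals. col21a1 had 0.987 and 1.36 CPM in nexn-/- libraries, against 0.0567 and 0.504 CPM in nexn+/+ libraries (log2(FC) 1.99, 95% interval 0.25 to 3.74, adjusted p = 0.073, edgeR). col19a1 (ENSDARG00000076163), which guides motor axons in zebrafish, had 9.11 and 7.22 CPM in nexn-/-, against 9.06 and 6.70 CPM in nexn+/+ libraries, and the groups overlapped (log2(FC) 0.05, 95% interval -0.49 to 0.60). A second gene named col19a1 (ENSDARG00000096073) had 40 and 36 counts in nexn-/- libraries, against 11 and 0 in nexn+/+ libraries (adjusted p = 0.0709, edgeR). For col21a1 and for this second gene the counts were few and the call changed with the setting. DESeq2 called neither of them (adjusted p = 0.116 for col21a1 and 0.433 for the second col19a1 gene). By limma-voom col21a1 was not called (adjusted p = 0.0522). With the replicate number as a block both were called higher (adjusted p = 0.0462 for col21a1 and 0.0355 for the second col19a1 gene, edgeR), as they were with library size alone (adjusted p = 0.0394 and 0.0195, edgeR), and limma-voom called the second col19a1 gene (adjusted p = 0.0348).

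Collagens of the epidermal attachment zone were split. col17a1a (ENSDARG00000069415), the transmembrane collagen of hemidesmosomes, had 363 and 355 CPM in nexn-/- libraries, against 188 and 151 CPM in nexn+/+ libraries, a 2.12-fold difference (log2(FC) 1.09, standard error 0.143, adjusted p = 0.00244, edgeR). Its paralog col17a1b had 29.2 and 31.1 CPM in nexn-/-, against 17.4 and 17.7 CPM in nexn+/+ libraries (log2(FC) 0.78, standard error 0.113, adjusted p = 0.00336, edgeR). col7a1l had 12.9 and 13.4 CPM in nexn-/-, against 3.74 and 4.29 CPM in nexn+/+ libraries (log2(FC) 1.71, standard error 0.183, adjusted p = 0.0015, edgeR), with estimated counts that were not whole. col7a1 (ENSDARG00000021720), the anchoring fibril gene, had 26.6 and 26.3 CPM in nexn-/- embryos, against 34.1 and 36.2 CPM in nexn+/+ embryos. The groups did not overlap, with nexn-/- below, as in 34.4% of tested genes. The adjusted p was 0.0238 by edgeR, but the log2(FC) of -0.41 was short of the fold limit. With effective length as an offset col7a1 was called lower (log2(FC) -0.82, adjusted p = 0.0368, edgeR). That length was 6752 and 3900 nucleotides in nexn-/- replicates 1 and 2 and 3737 and 3743 in the nexn+/+ libraries, so it stood apart in 1 library.

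Of the 3 multiplexin genes 1 was called higher, while 16.7% of all tested genes were called higher. col18a1a (ENSDARG00000036558), whose protein gives rise to endostatin, had 265 and 264 CPM in nexn-/- embryos, against 170 and 192 CPM in nexn+/+ embryos (log2(FC) 0.55, standard error 0.12, adjusted p = 0.014, edgeR). Without nexn+/+ replicate 1 its log2(FC) was 0.46, under the fold limit. col18a1b had 13.1 and 12.9 CPM in nexn-/-, against 10.4 and 6.15 CPM in nexn+/+ libraries and was not called (adjusted p = 0.0838, edgeR). Its log2(FC) was 1.08 without nexn+/+ replicate 1, whereas leaving out replicate 2 gave 0.32. It was called with the replicate number as a block, library size alone and the upper quartile (adjusted p = 0.0423, 0.0189 and 0.0449, edgeR). It was not called with DESeq2 (adjusted p = 0.111) or limma-voom (adjusted p = 0.050001). col15a1b had 33.3 and 34.5 CPM in nexn-/-, against 42.4 and 47.5 CPM in nexn+/+ libraries, without overlap of the groups (log2(FC) -0.41, adjusted p = 0.0279, edgeR), again short of the fold limit. Of all tested genes, 34.4% had both nexn-/- libraries below both nexn+/+ libraries.

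The type XXVIII genes rose by similar amounts, with col28a2a at 90.0 and 88.8 CPM in nexn-/- embryos, against 41.9 and 46.6 CPM in nexn+/+ embryos (log2(FC) 1.01, standard error 0.108, adjusted p = 0.0015, edgeR). col28a2b had 12.1 and 12.4 CPM in nexn-/-, against 6.46 and 5.54 CPM in nexn+/+ libraries (log2(FC) 1.03, standard error 0.177, adjusted p = 0.00579, edgeR). col28a1a had 24.5 and 25.0 CPM in nexn-/-, against 13.3 and 15.3 CPM in nexn+/+ libraries (log2(FC) 0.79, standard error 0.13, adjusted p = 0.00508, edgeR), and its estimated counts were partly not whole. The groups overlapped in none of these 3 genes, with nexn-/- above, an order held by 36.4% of tested genes. The fibril-forming genes of types XXIV and XXVII were low. col24a1 had 3.68 and 3.94 CPM in nexn-/- libraries, against 1.13 and 0.756 CPM in nexn+/+ libraries (log2(FC) 2.01, standard error 0.333, adjusted p = 0.0051, edgeR). col27a1b had 2.65 and 2.49 CPM in nexn-/-, against 0.453 and 1.11 CPM in nexn+/+ libraries (log2(FC) 1.69, standard error 0.447, adjusted p = 0.0261, edgeR), and its log2(FC) was 1.21 without nexn+/+ replicate 1, whereas leaving out replicate 2 gave 2.49.

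**Figure D3:**
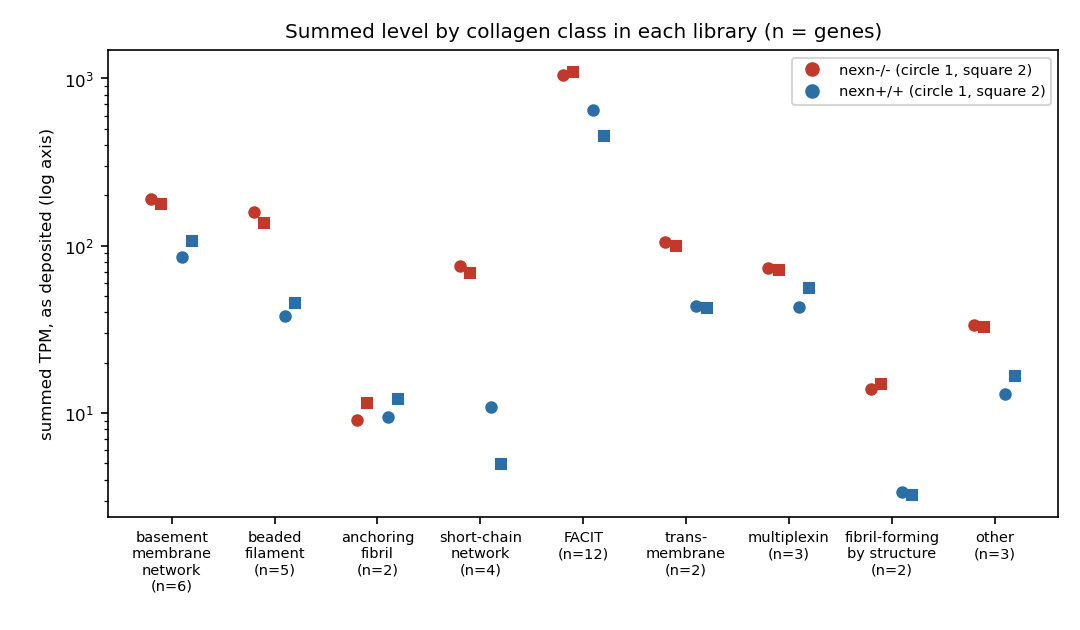
Deposited TPM summed over the genes of each collagen class in each library, on a log axis, with nexn-/- (red) left of nexn+/+ (blue), circles for replicate 1 and squares for replicate 2. Both nexn-/- libraries lie above both nexn+/+ libraries in every class but the anchoring fibrils, and the FACIT class is the highest, at 1051 and 1099 TPM in nexn-/- and 646 and 453 TPM in nexn+/+ embryos.

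By class, the summed TMM-scaled level in nexn-/- embryos was 8.10 times that in nexn+/+ embryos for the short-chain networks. It was 3.70 times for types XXIV and XXVII, from a low sum of 1.59 and 1.86 CPM in the nexn+/+ libraries. For type VI it was 3.12 times, and it was 2.08 times for type XVII, 1.96 times for type XXVIII, 1.75 times for the FACIT class, 1.70 times for type IV, 1.33 times for the multiplexins and 1.01 times for type VII. Over the 39 genes together it was 1.85 times, and it was 1.84 times for the 13 fibrillar collagens. The summed TPM of the 39 genes was 1710 and 1714 in nexn-/- libraries, against 894 and 742 in nexn+/+ libraries. For type VII the summed TPM in nexn-/- embryos was 0.954 times that in nexn+/+ embryos. Across the 39 genes the log2(FC) was weakly and inversely related to level (Pearson's r -0.23 and Spearman's rho -0.27 with log2 mean TPM), as a description across genes that share the same 4 libraries.

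The nexn+/+ replicates differed from each other by more than 2-fold in 8 of the 39 genes, and the nexn-/- replicates in 0. These 8 were col4a1, col4a2, col8a1a, col9a1b, col12a1b, col21a1, col27a1b and the second col19a1 gene. Over all tested genes the nexn+/+ replicates were also farther apart (median absolute log2 difference 0.243, against 0.144 in nexn-/-). The share of all tested genes beyond 2-fold was not counted. In nexn+/+ replicate 1, col8a1a, col9a1b, col4a1, col4a2 and col12a1b were higher than in replicate 2, whereas col21a1 and col27a1b were lower, and col9a1a also was at 0.603 times the level of replicate 2. The summed level of the notochord list, collagens left out, was also higher in nexn+/+ replicate 1 than in replicate 2 (517 and 288 CPM). Among its genes, named after their values were seen, were cav3 and cmn, with 68.1 and 69.7 CPM of cav3 in nexn-/- libraries, against 67.9 and 26.9 CPM in nexn+/+ libraries, and 95.5 and 97.7 CPM of cmn against 77.2 and 24.04 CPM. The gap between the nexn+/+ replicates was not particular to the notochord list. Skeletal muscle (82589 and 34584 CPM), fin fold (604 and 348 CPM) and cartilage (882 and 666 CPM) had the same order in these libraries. Lens (2200 and 3831 CPM) and photoreceptors (10774.1 and 13249.5 CPM) had the opposite order.

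**Figure D4:**
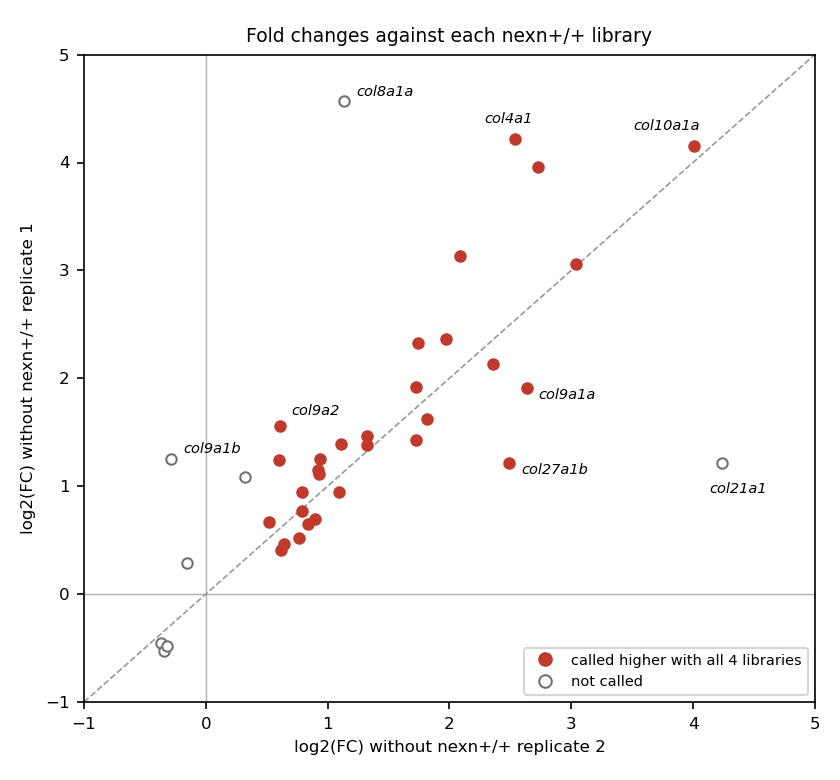
The log2(FC) of 38 genes with nexn+/+ replicate 2 left out (horizontal) and with nexn+/+ replicate 1 left out (vertical), red for genes called higher with all 4 libraries and grey for genes without a call; the dashed line marks equal values. The second col19a1 gene, at 0 counts in nexn+/+ replicate 2, is not plotted, and the points farthest from the line are col8a1a (1.13 and 4.57) and col21a1 (4.23 and 1.21).

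Marker lists of connective tissue, fin fold and cartilage, collagens left out, moved in the same direction, and their counts are to be read against the 16.7% of all tested genes called higher. In pooled whole embryos more cells of a type and more RNA per cell cannot be told apart. Of 17 genes of tendon and connective tissue fibroblasts, 15 were called higher and 0 lower, and their summed level was 2451 and 2281 CPM in nexn-/- embryos, against 1450 and 1198 CPM in nexn+/+ libraries. All 6 tested fin fold genes were called higher, at 1085 and 1059 CPM in nexn-/-, against 604 and 348 CPM in nexn+/+ libraries. Of 15 cartilage genes 8 were called higher and 0 lower, at 1634 and 1636 CPM in nexn-/-, against 882 and 666 CPM in nexn+/+ libraries. Among the 15 genes acana, the core protein of aggrecan, had 30.2 and 27.9 CPM in nexn-/-, against 3.40 and 3.43 CPM in nexn+/+ libraries. Not all cartilage genes rose, as 7 were not called, 3 had overlapping groups and 2 were lower in nexn-/- embryos without overlap. That last order was held by 34.4% of all tested genes. The log2(FC) of the 15 cartilage genes ran from -0.49 to 3.37. Of 8 tested notochord genes 4 were called higher and 0 lower, at 734 and 730 CPM in nexn-/-, against 517 and 288 CPM in nexn+/+ libraries. Of 11 endothelial genes 6 were called higher and 1 lower, at 170 and 165 CPM in nexn-/-, against 99.0 and 91.7 CPM in nexn+/+ libraries. Of 8 basal epidermis genes 2 (25%) were called higher, a share near that of all tested genes, and 0 lower, at 13188 and 13210 CPM in nexn-/-, against 12538 and 9409 CPM in nexn+/+ libraries. The part of these markers in the collagen differences was not tested.

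Other marker lists are to be read against the 16.7% of all tested genes called higher and the 13.9% called lower. Of 13 skeletal muscle genes 1 was called higher and 0 lower, with 49254 and 51981 CPM in nexn-/- libraries, against 82589 and 34584 CPM in nexn+/+ libraries. Of 8 motor neuron genes 0 were called higher and 3 lower, and of 16 tested photoreceptor genes 0 were called higher and 15 lower. Of 9 lens genes 2 (22.2%) were called higher, a share near that of all tested genes, and 0 lower, with 3326 and 3605 CPM in nexn-/-, against 2200 and 3831 CPM in nexn+/+ libraries.

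Genes that make, bind or cut collagens were mostly higher too. Of 126 symbols listed, 112 were found, in 116 genes, and 108 genes were tested. Of these 73 were called higher and 1 lower, with a median log2(FC) of 1.07, against 16.7% of all tested genes called higher. In the list of collagen making and processing 29 of 38 tested genes were called higher and 0 lower. The largest differences among genes with a mean of 1 CPM or more were those of pcolceb, an enhancer of the removal of the procollagen end (10.5 and 10.02 CPM in nexn-/-, 0.737 and 0.454 CPM in nexn+/+ embryos, log2(FC) 4.11), of pxdn, the peroxidasin that cross-links type IV networks (8.66 and 8.57 CPM in nexn-/-, against 1.25 and 1.16 CPM in nexn+/+ libraries, log2(FC) 2.84), and of loxl2a, a lysyl oxidase-like enzyme (11.2 and 11.2 CPM in nexn-/-, against 2.32 and 1.21 CPM in nexn+/+ libraries, log2(FC) 2.67). That mean was taken over all 4 libraries, so high nexn-/- values alone can carry a gene past it. This applied to pcolceb, which had 13 and 9 reads in the nexn+/+ libraries.

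Of the basement membrane partners of type IV collagen 21 of 29 tested genes were called higher and 0 lower. These counts and those of the receptors are to be read against the 16.7% of all tested genes called higher and 13.9% lower. The largest difference was that of lama2, the laminin chain of the muscle basement membrane, with 4.17 and 4.02 CPM in nexn-/- embryos, against 0.510 and 0.403 CPM in nexn+/+ embryos (log2(FC) 3.16). With 9 and 8 reads in the nexn+/+ libraries, lama2 reached a mean of 1 CPM only through nexn-/- libraries. The Fraser complex gene frem1a (log2(FC) 2.66) and the laminin gene lamc3 (log2(FC) 2.27) followed. Of the collagen receptors 15 of 22 were called higher and 0 lower, led by cspg4, whose product binds type VI collagen (7.72 and 6.91 CPM in nexn-/-, against 0.453 and 0.454 CPM in nexn+/+ libraries, log2(FC) 3.99), and by the collagen-binding receptor kinase genes ddr2b (log2(FC) 2.70) and ddr2l (log2(FC) 2.28). The same limit held for cspg4, with 8 and 9 reads in the nexn+/+ libraries.

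The enzymes that cut collagens and their inhibitors were the list with the smallest share of calls, 8 of 19 (42.1%) higher and 1 lower. Of all tested genes, 16.7% were called higher and 13.9% lower. The log2(FC) of the 19 tested genes ran from -3.45 to 2.45, and the gene at the low end was not called. Those called higher included the membrane-bound matrix metalloproteinase genes mmp15b (log2(FC) 2.45) and mmp15a (log2(FC) 2.25) and the metalloproteinase inhibitor gene reck, with 45.7 and 46.4 CPM in nexn-/- embryos, against 10.8 and 6.4 CPM in nexn+/+ embryos (log2(FC) 2.42). The gene called lower was mmp17b, with 6.91 and 6.74 CPM in nexn-/-, against 12.6 and 14.1 CPM in nexn+/+ libraries (log2(FC) -0.97, adjusted p = 0.00572, edgeR).

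The 30 called genes kept a log2(FC) above 0 under each tool, scaling, filter and offset tried and with each library left out. With the other tools, scalings and filters, 28 to 34 of the 39 genes were called higher. The calls depended on both nexn-/- libraries being present. Without either of them the fold changes were close to those above and the median log2(FC) was 1.07 and 1.104, but 1 gene, col10a1a, was called, because the spread then came from the nexn+/+ pair alone.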

How the data were processed

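Paired reads of whole-embryo RNA were aligned to GRCz11, with STAR and RSEM named, without a version, in the submitters' processing notes. The annotation release is not given in the sources used here. The authors deposited estimated counts per gene without normalization, of which 92.0% to 93.2% of the values above 0 were whole, together with TPM values (scaled to gene length and library total) and FPKM values. The deposited FPKM served only to derive effective lengths, and the deposited TPM to compare levels between genes. All column headings carry 1 library's name although the values differ, so libraries were assigned by deposition record. A gene-name reference held 38 of the 39 member identifiers.

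Rounded counts were tested with edgeR 4.0.16 under R 4.3.3 (filterByExpr, TMM, quasi-likelihood test, genotype as the only term, Benjamini-Hochberg adjustment over 20312 genes), and the script was tested on simulated data. Standard errors and 95% intervals come from this fit. Libraries held 19413597 to 21956272 counts, and genes with few counts carry a large counting error. Replicates differed beyond counting noise (chi-square divided by its degrees of freedom 5.58 in nexn-/- and 50.4 in nexn+/+). The labels call them biological replicates and name no sequencing batch. Named were all called genes, the most abundant gene of each type, the 10 most abundant, and up to 3 partner genes per list and direction. Genes that are no member were named as markers where a result turned on them. Members and lists were chosen with earlier results of these data known. Alternatives were DESeq2 1.42.0, limma-voom (limma 3.58.1), other scalings, filters and fold limits, effective length offsets, the replicate number as a block, and each library left out in turn.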

Additional observations from a re-analysis of the deposited data

How the results depend on the processing

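The number of non-fibrillar collagens called higher was 30, and it was 28 with DESeq2, 32 with limma-voom, 34 with library size alone and 29 with effective length offsets. With each library left out in turn it ranged from 1 to 33, with 1 without either nexn-/- library, where the lone nexn-/- library is assumed to vary like the nexn+/+ pair. Without a nexn+/+ library the spread came from the less variable nexn-/- pair alone, so the higher counts there rest on a smaller spread. The number called lower was 0. It was 1 with effective length offsets, 3 without a fold limit and 0 to 1 with a library left out. Partner genes called higher numbered 73, and 0 to 78 with a library left out. Those called lower numbered 1, with 2 by library size alone, 2 with the replicate block, 0 with a log2(FC) limit of 1 and 0 to 5 with a library left out. Over all genes, 3392 were called higher and 2831 lower. A log2(FC) limit of 1 gave 2218 and 922, library size alone gave 1878 lower, and a library left out gave 4 to 4934 higher and 0 to 3577 lower. The log2(FC) of col9a1b was -0.28 without nexn+/+ replicate 2, whereas leaving out replicate 1 gave 1.26, and the log2 ratio of the summed level of type VII was 0.02 with TMM-scaled counts and -0.068 with TPM. The causes were not tested. The labels share only replicate numbers (correlation of deviations -0.0191), and the replicate block gave 33 collagens higher, gaining col8a1a (log2(FC) 2.50, adjusted p = 0.00751, edgeR), col18a1b (adjusted p = 0.0423), col21a1 (adjusted p = 0.0462) and the second col19a1 gene (adjusted p = 0.0355) and losing col4a5 (adjusted p = 0.0501).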
